A study of Homo sapiens with 6 samples.

Results

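The mRNAs described here encode proteins of translation and protein biogenesis that are not ribosomal proteins and that are well known as TOP mRNAs, which start with a terminal oligopyrimidine (TOP) tract. The 10 members, EEF1A1, EEF1B2, EEF1D, EEF1G, EEF2, PABPC1, TPT1, NPM1, RACK1 and NACA, were chosen by name out of 25702 genes in the count tables by a rule that uses no measured value. Earlier results of these data were known when they were chosen, so shares and medians set beside all genes below are descriptions. All 10 were counted and passed the filter on low counts, which left 15431 genes. The data are gene counts from poly A RNA sequencing of K562 cells, an established myeloid leukemia cell line, transfected with a pCMV-HA plasmid. In the EV group the plasmid was the empty vector, in the MXD3 group it carried MXD3, a basic helix-loop-helix transcription factor that antagonizes MYC, and in the STIM1::MXD3 group it carried the fusion gene, in which the start of STIM1 stands in place of the start of MXD3. Each group had 2 libraries, described by the study as independent transfections, and the labels name no drug treatment in any group. Expression from these plasmids is transient and driven by a viral promoter, and each library is a bulk pool of cells that can hold untransfected cells.

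Most mRNAs of the translation machinery in vertebrates begin with a C at the cap, followed by an unbroken run of pyrimidines. When nutrients and growth factors are plentiful, the kinase complex mTORC1 permits their efficient translation, and when mTORC1 is inhibited, the cap-binding protein LARP1 and other factors hold them untranslated and protect them from decay. A control of this kind changes ribosome loading more than mRNA level, and RNA sequencing as used here measures the mRNA level alone. MYC is a known activator of genes for ribosomal proteins and translation factors.

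The transcript starts of the members are shown first because the pyrimidine run is what defines the class. Each line gives 30 bases in the sense of the transcript, 5′ to 3′, from RefSeq annotation of GRCh38.p14, of which the first 10 lie upstream of the annotated start. Capitals mark the run, which was searched on the transcript strand as a C at base 1 or 2 of the transcript, extended over every following C or T, and at least 4 bases long.
EEF1A1: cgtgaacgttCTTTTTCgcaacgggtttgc
EEF1B2: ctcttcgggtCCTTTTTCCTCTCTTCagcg
EEF1G: cgggcggcttaCTTTgcggcagcgccgaga
EEF2: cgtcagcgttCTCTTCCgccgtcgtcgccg
TPT1: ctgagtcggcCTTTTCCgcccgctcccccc
NPM1: agcctgcgtcCTTTCCCTggtgtgattccg
RACK1: gcttttctctCTCTCTTTCactgcaaggcg
NACA: ctcgctcggtCTTTCTgccgccatcttggt

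These windows lie at chr6:73521013-73521042 for EEF1A1, chr11:62573872-62573901 for EEF1G, chr19:3985444-3985473 for EEF2, chr13:45341164-45341193 for TPT1, chr5:181243887-181243916 for RACK1 and chr12:56725280-56725309 for NACA, all on the minus strand. Those of EEF1B2 (chr2:206159885-206159914) and NPM1 (chr5:171387839-171387868) are on the plus strand. PABPC1 and EEF1D are named here without a sequence. All 8 members with an entry had a run, compared with 12.7% of 27305 genes with an annotated start, 49 of 63 cytosolic ribosomal protein genes (77.8%) and 6 of 8 other TOP mRNAs. The run was longest in EEF1B2, at 16 bases, and shortest in EEF1G, at 4 bases, where it begins at base 2. It was 9 bases long in RACK1, 8 in NPM1, 7 in EEF1A1, EEF2 and TPT1, and 6 in NACA. EEF1B2 and NPM1 each had another annotated start that carried no run. A run at an annotated start is a description of the reference sequence, and the position of the cap in K562 cells was not measured.

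The depth, the labels and the cell line were checked before the members. The libraries held between 53048343 and 63835779 counts. MXD3 was at 9.33 and 11.7 TMM-scaled counts-per-million (CPM) in EV, 2523 and 2162 CPM in MXD3, and 1975 and 1849 CPM in STIM1::MXD3, so MXD3 was high in the libraries labelled as carrying it, and STIM1 was at 471 and 453 CPM in the STIM1::MXD3 libraries and between 159 and 205 CPM in the others. These counts hold reads from the plasmid and from the cells' own gene together. All 10 genes of a K562 identity list, among them the erythroid factor GATA1 and the embryonic globin HBE1, were above 1 CPM in every library and summed to between 6878 and 9501 CPM. A list of 10 markers of lymphoid, monocytic, stromal and epithelial cells was led by the keratin KRT19, at 159 to 273 CPM, while the B cell marker MS4A1 had no count in any library.

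EEF1A1 was the most abundant of the 15431 genes tested, by mean CPM over the 6 libraries. EEF2 ranked 2, PABPC1 8, EEF1G 16, NPM1 41, RACK1 99, TPT1 102, NACA 132, EEF1B2 478 and EEF1D 494. Together the members held 3.28% and 3.12% of all counts in the EV libraries, 2.91% and 3.02% in the MXD3 libraries, and 3.37% and 3.12% in the STIM1::MXD3 libraries. Both MXD3 libraries therefore lay below the 4 others, by a margin smaller than the distance between the STIM1::MXD3 libraries. The members' counts were between 16676 and 920893 per library, and counting error was not compared with the spread between libraries.

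**Figure D1:**
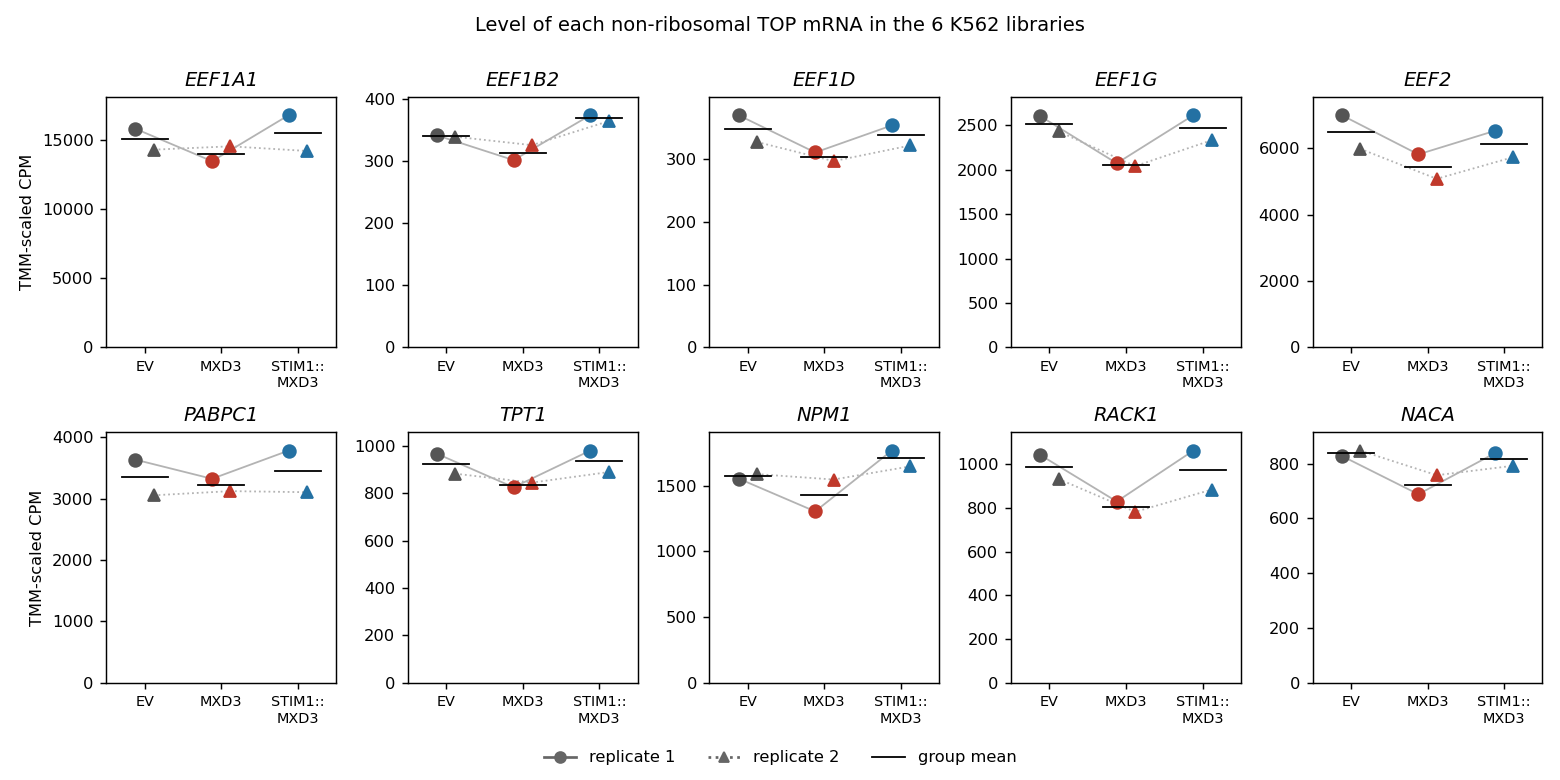
Level of each of the 10 members in TMM-scaled CPM, on a vertical axis that starts at 0, in the EV, MXD3 and STIM1::MXD3 groups. Circles joined by a solid line are the libraries of replicate 1, triangles joined by a dotted line those of replicate 2, and bars are group means of 2 libraries. In the replicate 1 libraries all members were lowest in MXD3, whereas in the replicate 2 libraries EEF1A1 and PABPC1 were not.

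eEF1A, encoded by EEF1A1 (Gene ID 1915, minus strand of chromosome 6 from 74199031 to 74235310 in GRCh37), brings aminoacyl-tRNA to the ribosome as a complex with GTP. EEF1A1 was at 15817 and 14305 CPM in EV, 13470 and 14546 CPM in MXD3, and 16799 and 14210 CPM in STIM1::MXD3. The 3 groups overlapped, and the replicate 1 libraries were both the lowest, in MXD3, and the highest, in STIM1::MXD3. The log2 fold change of MXD3 against EV was -0.10 ± 0.13 (SE), with -0.23 between the libraries numbered 1 and 0.02 between those numbered 2. For STIM1::MXD3 against EV it was 0.04 ± 0.13, with a 95% interval of the change in level from -17.0% to 27.7%. With the replicate number as a block in the fit, this interval was -0.122 to 0.203 on the log2 scale.

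The eEF1B complex recharges eEF1A with GTP, with the exchange subunits encoded by EEF1B2 and EEF1D and the structural subunit eEF1Bγ by EEF1G. EEF1B2 (Gene ID 1933, plus strand of chromosome 2 from 207024309 to 207027652 in GRCh37) was at 342 and 340 CPM in EV, 302 and 326 CPM in MXD3, and 375 and 365 CPM in STIM1::MXD3. Its groups did not overlap, with MXD3 lowest and STIM1::MXD3 highest, and its log2 fold change was -0.12 ± 0.12 for MXD3 and 0.12 ± 0.12 for STIM1::MXD3, each against EV. EEF1D (Gene ID 1936, minus strand of chromosome 8) was at 370 and 327 CPM in EV, 311 and 297 CPM in MXD3, and 354 and 322 CPM in STIM1::MXD3. Both MXD3 libraries lay below the others, by a log2 fold change of -0.20 ± 0.13 against EV, while the EV and STIM1::MXD3 libraries overlapped at -0.05 ± 0.13. EEF1G (Gene ID 1937, minus strand of chromosome 11 from 62327068 to 62341558 in GRCh37) was at 2603 and 2431 CPM in EV, 2072 and 2040 CPM in MXD3, and 2613 and 2332 CPM in STIM1::MXD3. Both MXD3 libraries lay below the 4 others, and the log2 fold change against EV was -0.29 ± 0.12, which is a change in level of -18.3% with a 95% interval from -33.1% to -0.29%. In STIM1::MXD3 the same gene differed from EV by -0.03 ± 0.12 on the log2 scale.

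EEF2 (Gene ID 1938, minus strand of chromosome 19 from 3976054 to 3985461 in GRCh37) encodes the GTPase that moves the ribosome along the mRNA by a codon after each peptide bond. It was at 7000 and 5986 CPM in EV, 5819 and 5081 CPM in MXD3, and 6529 and 5736 CPM in STIM1::MXD3. Both MXD3 libraries lay below both EV libraries, but the first of them exceeded the second STIM1::MXD3 library, and in every group the library numbered 1 was the higher. For MXD3 against EV the pairs gave nearly equal log2 fold changes of -0.27 in pair 1 and -0.24 in pair 2, and the fit over all libraries gave -0.25 ± 0.14 for MXD3 and -0.08 ± 0.14 for STIM1::MXD3 against EV.

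PABPC1 (Gene ID 26986, minus strand of chromosome 8) encodes the cytoplasmic poly(A)-binding protein, which bridges the mRNA tail to the cap-binding complex and also interacts with LARP1. PABPC1 was at 3636 and 3055 CPM in EV, 3324 and 3123 CPM in MXD3, and 3784 and 3106 CPM in STIM1::MXD3. Its groups overlapped in all 3 comparisons, and the EV libraries, like the STIM1::MXD3 libraries, lay farther apart than any of the group means. It had the smallest change of the members in MXD3 against EV, with -0.05 ± 0.15 on the log2 scale and opposite signs in the 2 pairs.

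RACK1 (Gene ID 10399, minus strand of chromosome 5 from 180663897 to 180675096 in GRCh37) encodes a scaffold protein bound to the small ribosomal subunit. It was at 1043 and 933 CPM in EV, 830 and 783 CPM in MXD3, and 1063 and 885 CPM in STIM1::MXD3. The MXD3 libraries lay below the 4 others, with a log2 fold change of -0.29 ± 0.14 against EV and a 95% interval from -35.3% to 2.87%, and the STIM1::MXD3 libraries lay on either side of the EV libraries. With the replicate number as a block in the fit, the 95% interval of RACK1 on the log2 scale was -0.467 to -0.116 for MXD3 against EV. NACA (Gene ID 4666, minus strand of chromosome 12 from 57106089 to 57125412 in GRCh37) encodes the alpha subunit of the nascent polypeptide-associated complex, which meets new chains at the ribosomal exit tunnel. NACA was at 828 and 847 CPM in EV, 688 and 758 CPM in MXD3, and 838 and 792 CPM in STIM1::MXD3. Both MXD3 libraries were again the lowest, with a log2 fold change of -0.21 ± 0.12 against EV, and STIM1::MXD3 differed from EV by -0.04 ± 0.12. The ratio of NACA to BTF3, its partner subunit, was 1.43 in the first library of EV and of MXD3 and 1.39 in that of STIM1::MXD3, and between 1.26 and 1.29 in the libraries numbered 2, so this ratio separated the replicate numbers and not the groups.

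NPM1 (Gene ID 4869, plus strand of chromosome 5 from 170814120 to 170838814 in GRCh37) encodes nucleophosmin, a nucleolar protein that takes part in ribosome assembly. NPM1 was at 1554 and 1589 CPM in EV, 1304 and 1547 CPM in MXD3, and 1767 and 1647 CPM in STIM1::MXD3. As with EEF1B2, the 3 groups did not overlap, although the second MXD3 library was close to the first EV library. Over all genes, both MXD3 libraries lay below both EV libraries in 14.8%, and both fusion libraries lay above both EV libraries in 12%. The share of genes with both was not counted. The log2 fold change was -0.14 ± 0.13 for MXD3 and 0.12 ± 0.13 for STIM1::MXD3 against EV. TPT1 (Gene ID 7178, minus strand of chromosome 13 from 45907606 to 45915419 in GRCh37) encodes translationally controlled tumor protein, whose mRNA is a textbook example of TOP control. It was at 968 and 883 CPM in EV, 826 and 846 CPM in MXD3, and 981 and 890 CPM in STIM1::MXD3. Both MXD3 libraries lay under the lowest of the others, at -0.15 ± 0.12 on the log2 scale against EV, and TPT1 had the narrowest range over the libraries of the 10 members, with the highest library 1.19 times the lowest. The widest range was that of EEF2, at 1.38 times.

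The first comparison asked whether MXD3 changed the level of these mRNAs. All 10 members were lower in MXD3 than in EV, by between 0.05 and 0.29 on the log2 scale, but no member passed the test. The median log2 fold change was -0.17, beside 0.0011 over all 15431 genes. EEF1G and RACK1 had the largest differences, followed by EEF2, and PABPC1 and EEF1A1 had the smallest. In these bulk libraries, fewer cells with a high level and less RNA per cell cannot be told apart.

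With edgeR's quasi-likelihood test, the adjusted p was 0.999 for every member in MXD3 against EV, and 0 members were called, where 0.00648% of all genes were called, which is MXD3 itself. The unadjusted p of the same fit was under 0.05 for 1 member (EEF1G, 0.0475) and for 1.86% of all genes. The 2 libraries numbered alike deviated together from their group means, and when this number entered the fit as a block, 5 members had an unadjusted p under 0.05 (EEF1G 0.00177, EEF2 0.00216, RACK1 0.00285, NACA 0.0227 and EEF1D 0.0251), where 13.9% of all genes did. With that block 0 members passed after adjustment, where 0.292% of genes did, and the smallest adjusted p of edgeR's test was 0.13 for EEF1G. DESeq2 with the block called 3 members lower, EEF1G (adjusted p = 0.0273), RACK1 (0.0355) and EEF2 (0.0492), among 243 genes, and DESeq2 without it called none of the members among 3 genes.

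The direction was the same in both pairs for 8 of the 10 members, where 31.5% of all genes were lower in both. The exceptions were EEF1A1 and PABPC1, which were higher by 0.02 and 0.03 on the log2 scale in the second pair. Likewise, for these 8 members both MXD3 libraries lay below both EV libraries, which held for 14.8% of all genes. The size differed between the pairs, with a median over the members of -0.25 in the first and -0.10 in the second. EEF1G, EEF2 and RACK1 were lower by between 0.24 and 0.33 in each pair, whereas NPM1 was at -0.25 and -0.04. Leaving out a single library moved several of these values. NPM1 was at -0.0095 without MXD3 replicate 1 and -0.28 without MXD3 replicate 2, and EEF1A1 at -0.03 without EV replicate 1. Without EV replicate 1 EEF2 was at -0.13 and EEF1D at -0.11. Summed over the 10 genes, the markers of other cell types were also lower in both MXD3 libraries than in both EV libraries. The sums were 318 and 259 CPM in EV, 247 and 202 CPM in MXD3, and 301 and 221 CPM in STIM1::MXD3. KRT19 made up most of each sum, at 273 and 206, 203 and 159, and 258 and 174 CPM in the same order. No other marker of the list exceeded 27.0 CPM in a library, and 4 of the 10 were under 1 CPM in every library. The K562 identity list summed to 8433 and 7759 CPM in EV, 8945 and 7654 CPM in MXD3, and 9501 and 6878 CPM in STIM1::MXD3, so its groups overlapped. Whether any library held cells other than K562 was not tested, nor was the part of the markers in the members' values.

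The second comparison asked the same of the fusion. The members' levels in STIM1::MXD3 lay on both sides of those in EV, with 5 members higher and 5 lower, between -0.08 (EEF2) and 0.12 (NPM1) on the log2 scale and a median of -0.0027, beside 0.0096 over all genes. No member was called, with an adjusted p of 1.00 for each in edgeR's test, where 0.00648% of all genes were called, and 0 had an unadjusted p under 0.05, where 0.953% did. With the replicate block both counts were also 0, where 0.0194% of genes passed after adjustment and 8.5% before it. DESeq2 called 0 members, with or without the block. Without the block, the 95% intervals of the change in level were wide beside these differences. They ran from -25.3% to 19.3% for EEF2 and from -12.5% to 34.9% for NPM1. On the log2 scale the interval of EEF2 was -0.420 to 0.255 without the block and -0.227 to 0.065 with it. That of NPM1 was -0.193 to 0.432 without the block and -0.068 to 0.310 with it.

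In the same comparison 4 members, EEF1B2, NPM1, PABPC1 and TPT1, were higher in both pairs, where 27.2% of all genes were, and EEF1D and EEF2 were lower in both, where 25.1% were. For EEF1B2 and NPM1 both fusion libraries lay above both EV libraries, which was the case for 12% of all genes. Leaving out a single library turned the sign of 7 of the 10 members. Without STIM1::MXD3 replicate 1 the median was -0.09, with 8 members lower, and without STIM1::MXD3 replicate 2 it was 0.09, with 9 members higher. Leaving out EV replicate 1 gave 0.07 and leaving out EV replicate 2 gave -0.06.

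**Figure D2:**
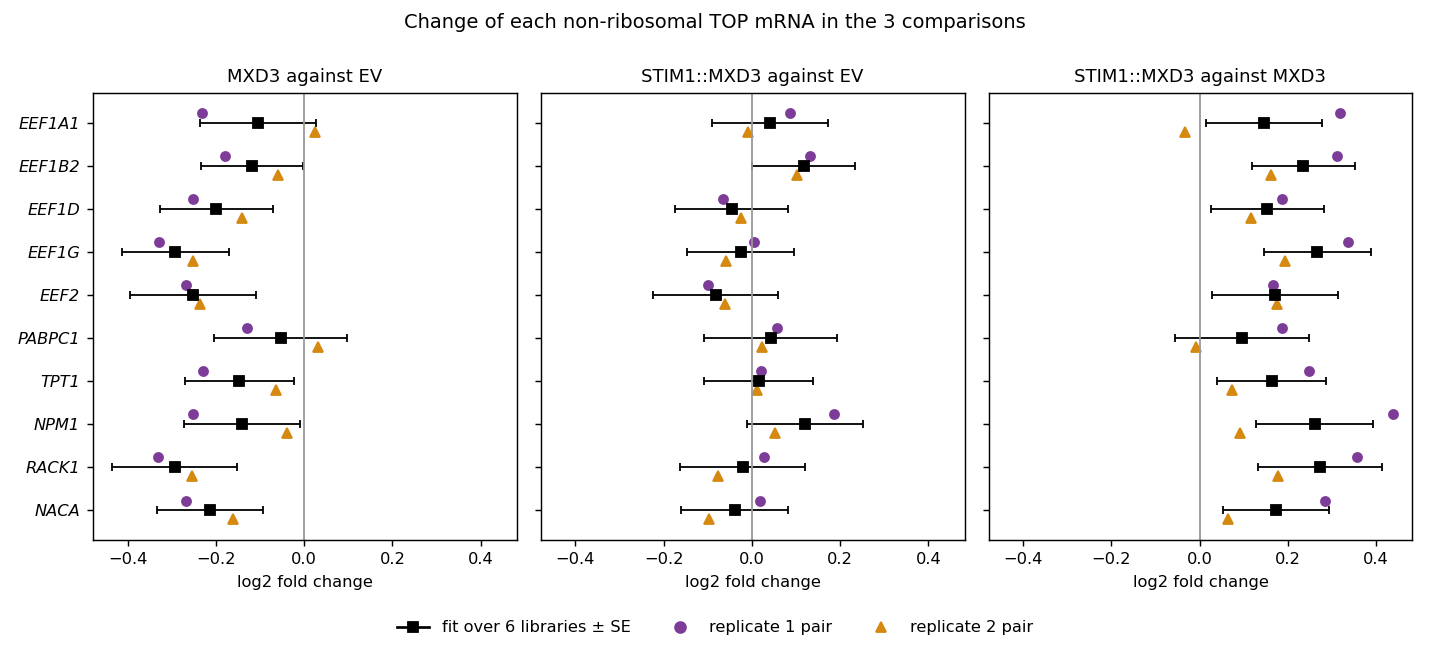
Log2 fold change of each member in the 3 comparisons. Squares with bars are the estimate ± SE of the fit over 6 libraries, circles the difference between the libraries numbered 1 and triangles between those numbered 2. All squares lie below 0 in MXD3 against EV and above 0 in STIM1::MXD3 against MXD3, and they lie within 0.12 of 0 in STIM1::MXD3 against EV.

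The third comparison set the fusion beside MXD3, with the MXD3 libraries shared with the first comparison and the fusion libraries with the second. Counts of MXD3 itself were lower in the fusion libraries in both pairs, at -0.29 ± 0.15 on the log2 scale, and did not pass the test. The fusion lacks the start of MXD3, so these counts do not give the relative amounts of the constructs. The part of this difference in the members' values was not tested. All 10 members were higher in STIM1::MXD3 than in MXD3, by between 0.10 (PABPC1) and 0.27 (RACK1) on the log2 scale, with a median of 0.17 beside 0.0083 over all genes. EEF1G, NPM1 and EEF1B2 followed RACK1, with 0.27 ± 0.12, 0.26 ± 0.13 and 0.24 ± 0.12 (SE). No member passed the test in edgeR, with an adjusted p of 1.00 for each, in a comparison where 0% of genes were called and where 1.01% of genes, among them 0 members, had an unadjusted p under 0.05. With the replicate block 5 members, EEF1G, RACK1, NPM1, EEF1B2 and EEF2, had an unadjusted p under 0.05, between 0.00364 and 0.0248, where 6.49% of all genes did, and none passed after adjustment (the smallest adjusted p in edgeR was 0.641), where 0.00648% did. DESeq2 called 0 members in this comparison, and the smallest adjusted p with the block was 0.0626.

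Of the members, 8 were higher in both pairs, where 27.5% of all genes were, and for 7 members both fusion libraries lay above both MXD3 libraries, where 10.9% of all genes did so. EEF1A1 and PABPC1 were lower by 0.03 and 0.01 in the second pair, and EEF2 was higher in both pairs although its libraries overlapped. The median was 0.30 in the first pair and 0.10 in the second, and over all libraries but STIM1::MXD3 replicate 1 it was 0.11, and over all but STIM1::MXD3 replicate 2 it was 0.25. For EEF1A1, EEF1B2, TPT1 and NPM1, MXD3 replicate 1 was the lowest and STIM1::MXD3 replicate 1 the highest of the 6 libraries. The share of all genes with this pattern was not counted.

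Because the libraries of a group differed, the replicate numbers were compared directly, with the group in the fit. EEF2 (log2 fold change -0.20 ± 0.06, adjusted p = 0.0129) and PABPC1 (-0.21 ± 0.06, adjusted p = 0.0211) were lower in the libraries numbered 2 in edgeR's test, and 16.1% of all genes were called lower in that contrast. The difference between replicate numbers was thus as large for PABPC1 and EEF2 as many of the differences between groups. RACK1, at -0.17 ± 0.07, was lower in the libraries numbered 2 of all 3 groups and did not pass after adjustment (adjusted p = 0.0701). In either direction 4499 of the 15431 genes were called in this contrast. With library sizes alone in place of TMM scaling 4275 genes were called, and 0 members were among them. NPM1, NACA and EEF1B2 had positive values of 0.06, 0.03 and 0.02, and of these NPM1 and NACA were higher in the second library of EV and of MXD3.

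Levels can be compared between genes only per length, and for this the CPM of each member was divided by the median length of its basic protein-coding transcripts. In EV, EEF1A1 then led with 7663 ± 544 CPM per kb (SD, n = 2), followed by EEF2 with 2056 ± 227 and EEF1G with 1741 ± 84.4. RACK1 (1198 ± 94.5), PABPC1 (1187 ± 146) and NPM1 (1184 ± 18.2) lay within each other's SD, so their order was not resolved with this length, and it differed between the 3 groups. TPT1 was at 878 ± 56.5, NACA at 786 ± 12.9, EEF1B2 at 404 ± 1.79 and EEF1D at 308 ± 26.7 CPM per kb. Within the eEF1 complex, EEF1G was therefore counted more per length than the exchange subunits EEF1B2 and EEF1D, and EEF1A1 more than all of them. Part of the order rests on the length used. With the canonical transcript of the annotation, TPT1 and NACA were at 204 and 131 CPM per kb, below EEF1B2 at 422, and NACA was also below EEF1D at 167. RACK1 was then at 867, below PABPC1 at 1169 and NPM1 at 1190, while EEF1A1, at 4288, still led.

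**Figure D3:**
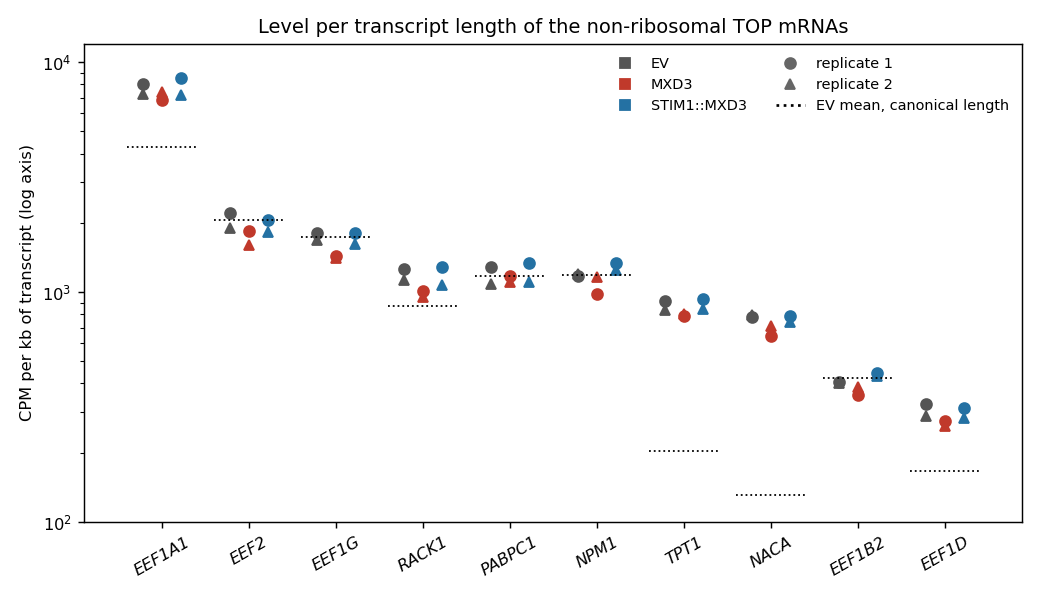
Level of each member per kb of transcript, in CPM per kb on a log axis, for each library of the EV, MXD3 and STIM1::MXD3 groups, ordered by the EV mean. The length is the median over basic protein-coding transcripts, and dotted lines show the EV mean with the canonical transcript length. EEF1A1 stands above the others and EEF1D lies at the low end, while RACK1, PABPC1 and NPM1 cannot be put in order with the median length.

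Near-identical copies limit what these counts measure. The RefSeq gene table lists 161 pseudogenes whose symbols are those of a member followed by P and a number, 50 each for EEF1A1 and NPM1, 14 for TPT1, 13 for PABPC1 and none for EEF2. Of these, 4 are in the count tables, and the 2 with any count were EEF1A1P9, with between 45 and 179 counts in a library, and PABPC1P2, with between 0 and 20. Reads that match a parent gene and a copy equally could have been lost from the parent, and how many is not known. EEF2, RACK1, EEF1B2 and TPT1 also host small nucleolar RNAs in their introns, which have entries of their own in the tables.

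Medians of other TOP mRNAs were close to those of the members. A list of 15 other TOP mRNAs held subunits of eIF3 (EIF3A, EIF3E, EIF3F, EIF3G, EIF3H and EIF3L), EIF4B, PABPC4, HNRNPA1, NAP1L1, BTF3, VIM, the importins IPO5 and IPO7, and the mitochondrial carrier SLC25A5. In MXD3 against EV 14 of the 15 were lower, 10 of them in both pairs, where 31.5% of all genes were lower in both. Their median was -0.19, and 0 were called, also with the replicate block. With that block 8 had an unadjusted p under 0.05, all lower, where 13.9% of all genes did in either direction. EIF3F was at 362 and 285 CPM in EV, 288 and 241 CPM in MXD3, and 347 and 274 CPM in STIM1::MXD3, a log2 fold change of -0.29 ± 0.19 for MXD3 against EV in libraries that overlapped. SLC25A5 was at 684 and 650, 593 and 577, and 708 and 622 CPM in the same order, and its MXD3 libraries lay below the others at -0.19 ± 0.12. The fusion against EV gave a median of 0.02, with 8 higher and 7 lower. The smallest p there belonged to IPO7, at 0.11 ± 0.16, and to NAP1L1, a histone chaperone, at 0.10 ± 0.13, and the libraries of both overlapped. Against MXD3 all 15 were higher in the fusion, with a median of 0.17, among them EIF3E at 0.20 ± 0.15, and 0 were called.

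The cytosolic ribosomal proteins, the core of the TOP class, held 79 genes. In MXD3 against EV 78 were lower, all of them in both pairs, with a median of -0.24, where 31.5% of all genes were lower in both. In STIM1::MXD3 against MXD3 78 were higher in both pairs, with a median of 0.23, where 27.5% of all genes were higher in both. Of the same genes, 41 were higher in the fusion than in EV and 38 were lower, with a median of 0.0045. None were called in any comparison, with or without the replicate block. With the block 64 had an unadjusted p under 0.05 in MXD3 against EV, all lower, where 13.9% of all genes did in either direction. In STIM1::MXD3 against MXD3 66 did, all higher, where 6.49% of all genes did. In STIM1::MXD3 against EV 1 did, where 8.5% of all genes did. RPS15A was at 663 and 642 CPM in EV, 494 and 500 CPM in MXD3, and 668 and 598 CPM in STIM1::MXD3, with -0.39 ± 0.12 on the log2 scale for MXD3 against EV (unadjusted p = 0.0143) and 0.35 ± 0.12 for the fusion against MXD3. RPL27 was at -0.32 ± 0.12 and 0.32 ± 0.12 in the same comparisons. The members' medians were thus closer to 0 than those of the ribosomal proteins in the first and the last comparison. RPS18 had between 27 and 69 counts in a library, too few for its value in the comparison of the fusion with EV to be read.

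**Figure D4:**
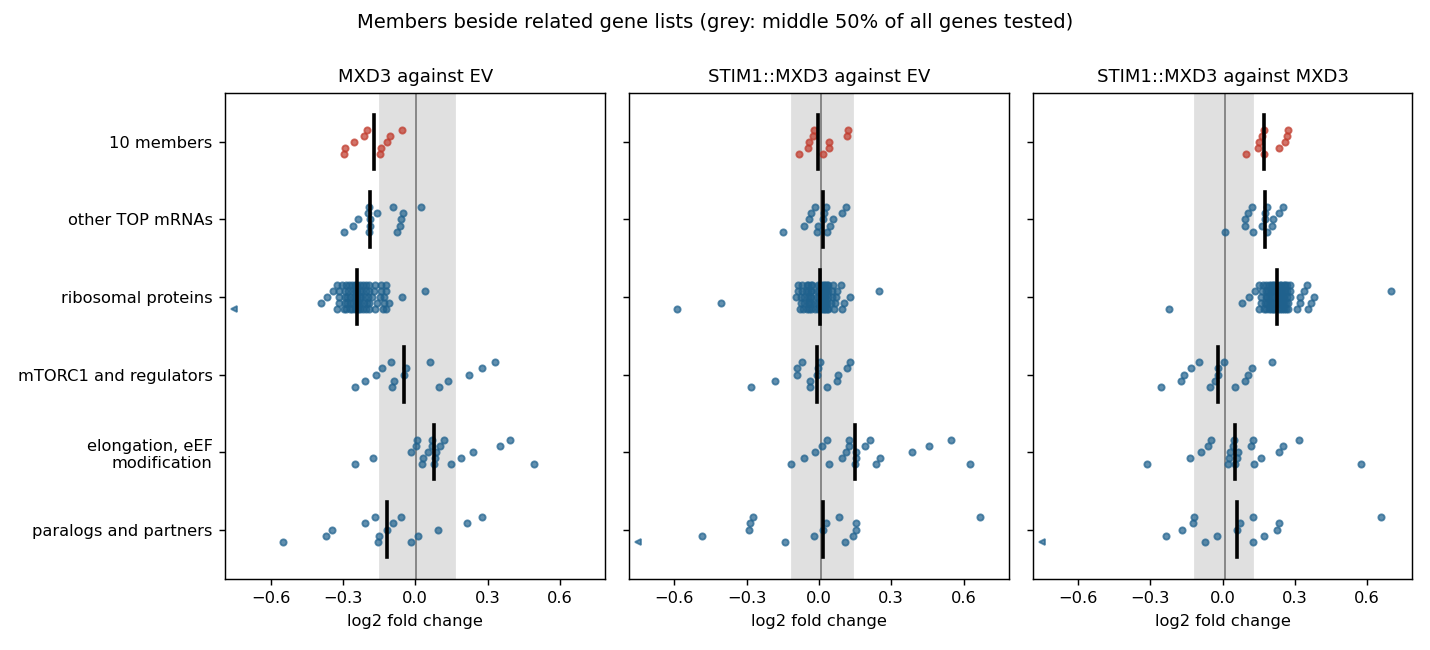
Log2 fold changes of the members (red) and of 5 related gene lists (blue) in the 3 comparisons. Each point is a gene, black bars are list medians, the grey band holds the middle 50% of all genes tested, and triangles at the edge stand for genes outside the axis. The members, the other TOP mRNAs and the ribosomal proteins have medians of -0.17, -0.19 and -0.24 in MXD3 against EV, while the medians of the remaining lists lie between -0.12 and 0.08.

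Abundant genes as a whole lay lower in MXD3 than in EV. Among the 494 genes tested that were at least as abundant as EEF1D, the lowest member, the median was -0.10 in MXD3 against EV, and 62.3% were lower in both pairs. Without the members and the ribosomal proteins, 414 genes were left, with a median of -0.06 and 55.6% lower in both pairs. The members' count of 8 of 10 stands beside these shares as well as beside that of all genes. These 414 genes had a median of 0.05 in STIM1::MXD3 against MXD3 and of -0.02 in STIM1::MXD3 against EV. The part of abundance in the members' values was not tested.

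The length of the pyrimidine run was also set beside the change, over genes with a mean of at least 100 CPM that were neither members nor ribosomal proteins. Each gene was classed by the longest run among its annotated starts. The other TOP mRNAs were not removed, and the classes were not matched for abundance. In MXD3 against EV the median was -0.04 over 1566 genes without a run, -0.09 over 175 genes with a run of 4 or 5 bases, -0.09 over 106 with 6 or 7, and -0.10 over 91 with 8 or more. In the same order, 46.0%, 59.4%, 63.2% and 64.8% of the genes were lower in both pairs. In STIM1::MXD3 against MXD3 the medians were 0.02, 0.04, 0.07 and 0.06, and in STIM1::MXD3 against EV they were between -0.04 and -0.02. The quartiles of the classes overlapped in all 3 comparisons. Among the members themselves, the 2 largest differences were those of EEF1G, with the shortest run, and RACK1, with a run of 9 bases. EEF1B2, with the longest run, had one of the 3 smallest. The relation between run and change among the members was not tested.

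**Figure D5:**
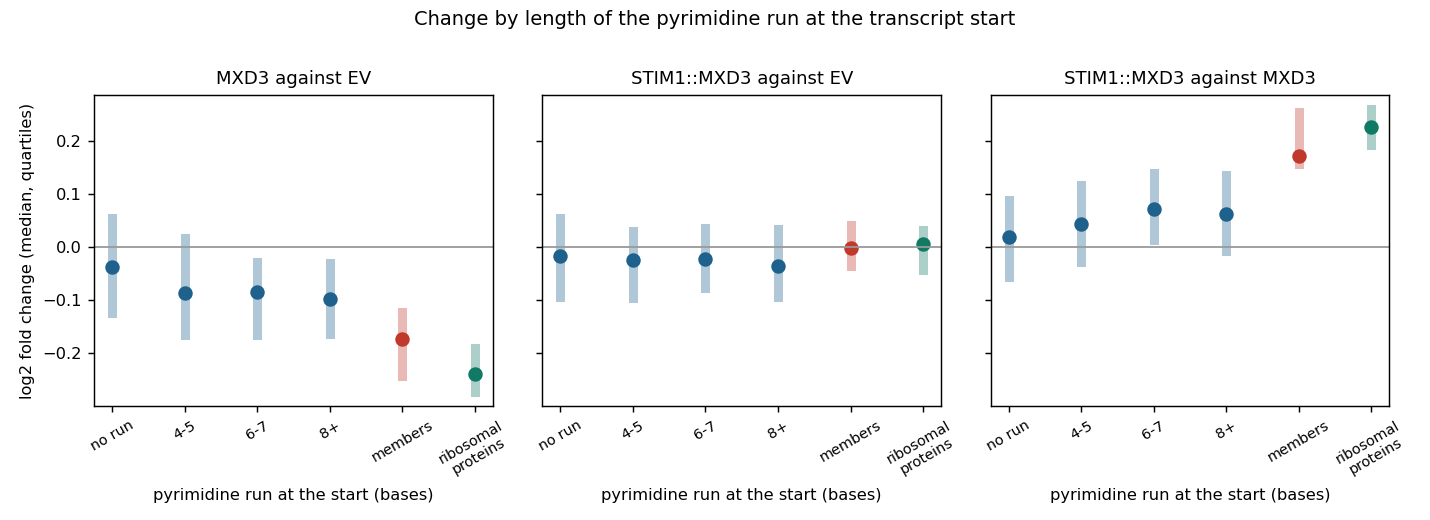
Median log2 fold change (dots) with the quartiles (bars) by length of the pyrimidine run at the annotated transcript start, for genes with a mean of at least 100 CPM, beside the members and the ribosomal proteins. Genes without a run have a median of -0.04 in MXD3 against EV and those with a run of 8 or more bases -0.10, with overlapping quartiles, and the members are at -0.17.

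mTORC1 and the proteins that bind TOP mRNAs did not pass the test in any comparison. Of 16 listed genes, 15 were tested, and DEPTOR, an inhibitor of mTORC1, had at most 7 counts in a library. In MXD3 against EV 6 were higher and 9 lower, with a median of -0.05, and 0 were called. EIF4EBP2, which encodes an inhibitor of eIF4E, was at 247 and 247 CPM in EV, 298 and 278 CPM in MXD3, and 261 and 278 CPM in STIM1::MXD3, with 0.22 ± 0.12 on the log2 scale for MXD3 against EV. RPS6KB1, an S6 kinase downstream of mTORC1, was at 33.9 and 41.0 CPM in EV and 43.0 and 47.7 CPM in MXD3, with 0.28 ± 0.17. Between the fusion and EV the smallest p belonged to TSC1, at -0.28 ± 0.21, and TSC2, at -0.18 ± 0.14, which encode the complex that restrains mTORC1. LARP1, the repressor that binds the TOP cap, was at 450 and 463 CPM in EV, 494 and 508 CPM in MXD3, and 426 and 463 CPM in STIM1::MXD3, and its log2 fold change for the fusion against MXD3 was -0.17 ± 0.12. CNBP, which also binds TOP mRNAs, was at 0.21 ± 0.17 in that comparison, with overlapping libraries.

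Factors that act with or modify the elongation factors, listed together with factors of termination and ribosome recycling, had another median than the members. Of 21 genes, 18 were higher in MXD3 and 18 in STIM1::MXD3 against EV, where 7742 and 8044 of the 15431 genes tested were. The medians were 0.08 and 0.15, and 0 were called in any comparison. DPH2, an enzyme of the pathway that makes diphthamide on eEF2, was at 32.2 and 36.4 CPM in EV, 43.0 and 47.0 CPM in MXD3, and 39.5 and 54.6 CPM in STIM1::MXD3. Its EV libraries lay below the 4 others, with a log2 fold change of 0.39 ± 0.18 for MXD3 and 0.46 ± 0.18 for STIM1::MXD3 (unadjusted p = 0.0706 and 0.0421 in edgeR's test). EEF2KMT, a lysine methyltransferase of eEF2, had between 195 and 387 counts, with 0.49 ± 0.25 and 0.55 ± 0.25. DPH5 and DPH1, of the same pathway as DPH2, were at 0.25 ± 0.13 and 0.32 ± 0.20 in STIM1::MXD3 against MXD3.

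Among 15 paralogs and binding partners of the members, 11 were lower in MXD3 than in EV, with a median of -0.12, and 0 were called. The smallest p belonged to LARP4B and LARP4, RNA-binding proteins that interact with poly(A)-binding protein, and both were higher, at 0.28 ± 0.14 and 0.22 ± 0.14. EEF1A2, the paralog of EEF1A1 used in muscle and neurons, was at 144 and 147 CPM in EV, 144 and 118 CPM in MXD3, and 165 and 143 CPM in STIM1::MXD3, and it was 0.24 ± 0.14 higher in the fusion than in MXD3. PABPC1L differed between STIM1::MXD3 and EV by -0.69 and 0.14 in the 2 pairs, that is in opposite directions. NACAD had 5 and 14 counts in EV, 12 and 2 in MXD3, and 0 in both fusion libraries, too few for a fold change.

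The genes most like the members were sought by the root-mean-square distance between a gene's centred log2 CPM over the 6 libraries and the members' mean profile. That profile was 0.11 and -0.00018 in EV, -0.13 and -0.12 in MXD3, and 0.15 and -0.01 in STIM1::MXD3, so the first libraries of EV and of the fusion were high and both MXD3 libraries low. Of 2398 candidates with a mean of at least 100 CPM, RPS4X (distance 0.0179), SLC25A5 (0.0227), RPL10 (0.023), PSMB3 (0.0258) and OLA1 (0.0258) were nearest. RPS4X and RPL10 encode ribosomal proteins and PSMB3 a proteasome subunit, and 5 of the 20 nearest genes encode ribosomal proteins. Among the members TPT1 was nearest to the mean profile, at 0.0185, and NPM1 farthest, at 0.0917.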

How the data were processed

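RNA from 6 libraries of K562 cells was analysed, 2 each for EV, MXD3 and STIM1::MXD3, with groups and replicate numbers taken from the labels. The authors deposited 1 table of raw gene counts per library, listed by NCBI Gene identifier and not normalised. The submitters' processing notes name HISAT2 2.2.1, featureCounts 2.0.1 and hg19 (GRCh37). The annotation and the use of strand are not given in the sources used here, so genes that overlap or that have near-identical copies are counted with uncertainty. Low counts (1 to 39) were even in 59.8% to 67.3% of cases, depending on the library, so a count may hold both ends of a read pair, and counts divided by 2 were tried as well. Of 25702 identifiers, 23696 matched a symbol, and those that did not held 0.225% to 0.276% of the counts and stayed in the library sizes.

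Genes were kept with filterByExpr and library sizes scaled with TMM. Groups were compared with edgeR's quasi-likelihood F test (two-sided, version 4.0.16, under R 4.3.3), in 1 fit over 6 libraries with no covariate. Adjusted p-values are those of Benjamini and Hochberg over the 15431 genes tested, and the threshold was 0.05. The study used DESeq2, which was run as an alternative (version 1.42.0). The other alternatives were the replicate number as a block, other scalings, no filter, 2 groups alone and leaving out each library. The prior count for log2 CPM was 2. The functions for the test were tested on simulated data. With 2 libraries per group, p-values measure the spread between transfections. In the fit without the block, that spread includes the difference between replicate numbers that the groups share. Gene positions came from the GENCODE annotation of GRCh37, transcript starts from RefSeq on GRCh38.p14, and the count of pseudogenes from RefSeq.

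The labels give every group the replicate numbers 1 and 2. Libraries with the same number deviated together from the means of their groups. Across genes, which are not independent, r was 0.270 between EV and MXD3, 0.364 between EV and the fusion, and 0.450 between MXD3 and the fusion. Over the 10250 genes with a mean of at least 5 CPM, r was 0.621, 0.707 and 0.792, in the same order. As every r was over 0.1, the numbers were taken to pair the libraries, and values with the block are given beside results they change.

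All 10 members and MXD3 and STIM1 were named. In each other list, up to 2 genes per comparison with the smallest unadjusted p were named, as were the 5 genes most like the members with a mean of at least 100 CPM, and the pseudogenes with the highest counts. A gene that this rule names is not reported here. Other genes named in the text were chosen as background or after their values were seen. The members and lists were chosen with earlier results of these data known, so no p-value is given for a list.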

Additional observations from a re-analysis of the deposited data

Results flagged for a closer look

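EEF1B2, TPT1 and NPM1 were lower with MXD3 and higher with STIM1::MXD3 than with EV in both replicate pairs. The changes from EV under the constructs differed by 0.24 on the log2 scale for EEF1B2, 0.16 for TPT1 and 0.26 for NPM1. Because both changes share the EV libraries, this difference equals that of STIM1::MXD3 against MXD3, which did not pass edgeR's test for any of them (unadjusted p = 0.0831, 0.23 and 0.09, in the same order, and adjusted p = 1.00 for each). Opposite directions in both pairs were found in 760 of 15431 genes (4.93%). For TPT1 the values in STIM1::MXD3 were 0.02 and 0.01 above EV in the pairs, and the EV and fusion libraries overlapped.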

How the results depend on the processing

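The members' median in MXD3 against EV, -0.17, and in STIM1::MXD3 against MXD3, 0.17, kept its sign under all settings tried, and ranged from -0.20 to -0.12 and from 0.11 to 0.25 when a library was left out. All 10 members were lower in the former under every change of test, scaling, filter and counting, and 9 were when EV replicate 1 was left out. The number of genes called in MXD3 against EV was 1, and it was 45 with the replicate block, 3 with DESeq2, 243 with DESeq2 and the block, and 1 to 2 when a library was left out. In STIM1::MXD3 against EV it was 1, and it was 3 with the block, 3 with DESeq2, 29 with DESeq2 and the block, and 2 without the filter on low counts. In STIM1::MXD3 against MXD3 it was 0, and 1 with the block, 1 with DESeq2, 11 with DESeq2 and the block, and 1 without the filter. DESeq2 with the block called 3 members (EEF1G, EEF2 and RACK1) in MXD3 against EV, and the block changed no other call of a member. The median in STIM1::MXD3 against EV, -0.0027, was 0.0075 with library sizes alone and between -0.0946 and 0.0877 when a library was left out. Of the members' single values, 461 kept their sign and side of the threshold, and the 16 that turned sign did so when a library was left out. In MXD3 against EV this was PABPC1, between -0.17 and 0.0790, and of those that kept their sign NPM1 moved the most, between -0.28 and -0.0095, and in STIM1::MXD3 against MXD3 again PABPC1, between -0.0549 and 0.22. In STIM1::MXD3 against EV the ranges were -0.0829 to 0.15 for EEF1A1, -0.13 to 0.0462 for EEF1D, -0.109 to 0.0471 for EEF1G, -0.189 to 0.0361 for EEF2, -0.106 to 0.174 for PABPC1, -0.0549 to 0.0842 for TPT1 and -0.159 to 0.0983 for RACK1. Between the replicate numbers, 2 members were called among 4499 genes, and 0 among 4275 with library sizes alone. Where a library was left out, its group had 1 library, which was assumed to vary like the others. The cause of these shifts was not tested. The members had 16676 counts or more in every library, and other depths were not tried.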
